A study of Mus musculus with 6 samples.

Results

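The genes described here are 10 members of the myosin light chain family and of the kinases that act on it, chosen by name from the 20632 genes in the deposited table. They are the slow chains *Myl2* and *Myl3*, the fast chains *Myl1* and *Mylpf*, the nonsarcomeric chains *Myl6*, *Myl6b* and *Myl9*, and the kinases *Mylk*, *Mylk2* and *Mylk4*. All 10 were found in the table and all 10 passed the filter on low counts. Total RNA was sequenced from whole hind limb muscles of 3 Baf155WT mice and 3 Baf155ΔMF mice, with 1 library per mouse. Baf155WT mice carried the floxed Baf155 allele without Cre. Baf155ΔMF mice carried the same floxed allele with MCK-Cre, a Cre driven by the muscle creatine kinase promoter, which is active in skeletal muscle fibers and in the heart. The labels call this genotype Baf155 -/-, but the deletion is restricted to cells in which the promoter is active, and the other cells of the muscle keep the gene. Mice of both genotypes were unexercised males, 3 months old and on a C57BL/6 background in the labels (C57BL/6J in the study's methods), and the tibialis anterior, extensor digitorum longus, gastrocnemius, soleus and quadriceps of a mouse were represented together. *Smarcc1*, which encodes the SWI/SNF chromatin remodeling subunit Baf155, fell from 19.96 ± 3.25 CPM to 7.10 ± 0.590 CPM (SD, n = 3), a log2 fold change of -1.49 (edgeR adjusted p = 0.00907). The study sequenced these muscles to look for transcripts related to endurance, and the question here is whether those of the light chains and their kinases differed by genotype.

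A myosin molecule pairs heavy chains, which hold the motor, with essential and regulatory light chains that wrap the lever arm. In skeletal muscle the essential chains are *Myl1* in fast fibers and *Myl3* in slow fibers, and the regulatory chains are *Mylpf* in fast fibers and *Myl2* in slow fibers. Calcium signals activate light chain kinases, which phosphorylate the regulatory chain, and a myosin phosphatase removes that phosphate. *Mylk2* encodes the skeletal muscle kinase and *Mylk* the smooth muscle and nonmuscle kinase, while *Mylk4* encodes a less studied member of the kinase family that is abundant in striated muscle.

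The promoter windows of 4 genes are shown because they stand for the slow chains, the fast chains and the kinase that varied most between mice. Each run is the 250 bases before a RefSeq transcription start on GRCm38.p6, read 5′ to 3′ on the strand of the gene. Capitals mark matches to an E-box (CANNTG, the letters bound by myogenic bHLH factors), to a CArG box (the serum response factor motif) or to a MEF2 motif, searched on both strands.
*Myl3* (chr9:110763428-110763677, plus strand): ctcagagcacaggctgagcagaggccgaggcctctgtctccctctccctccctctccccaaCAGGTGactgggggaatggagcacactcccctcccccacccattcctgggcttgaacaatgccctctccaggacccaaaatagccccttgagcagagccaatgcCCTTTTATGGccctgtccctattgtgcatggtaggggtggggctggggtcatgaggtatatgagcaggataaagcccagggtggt
*Myl1* (chr1:66945057-66945306, minus strand): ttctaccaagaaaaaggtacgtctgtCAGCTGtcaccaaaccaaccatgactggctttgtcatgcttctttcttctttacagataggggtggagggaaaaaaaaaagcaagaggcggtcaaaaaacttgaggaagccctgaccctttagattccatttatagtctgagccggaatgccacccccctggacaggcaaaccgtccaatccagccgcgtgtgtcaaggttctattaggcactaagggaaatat
*Mylpf* (chr7:127211358-127211607, plus strand): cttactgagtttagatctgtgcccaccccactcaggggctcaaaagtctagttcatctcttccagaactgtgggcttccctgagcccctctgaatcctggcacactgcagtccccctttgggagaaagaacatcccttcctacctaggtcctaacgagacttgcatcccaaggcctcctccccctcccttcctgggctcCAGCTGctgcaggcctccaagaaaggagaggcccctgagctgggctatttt
*Mylk4* (chr13:32783965-32784214, minus strand): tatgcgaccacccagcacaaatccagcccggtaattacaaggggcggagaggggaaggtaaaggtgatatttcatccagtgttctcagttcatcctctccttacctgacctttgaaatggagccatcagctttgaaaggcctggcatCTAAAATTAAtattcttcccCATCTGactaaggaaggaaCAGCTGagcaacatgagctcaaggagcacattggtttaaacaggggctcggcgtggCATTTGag

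The *Mylk4* window holds 3 E-box matches and 1 MEF2 match, whose first letters lie 103 (MEF2), 83, 64 and 8 bases before the start. The *Myl3* window holds a CArG box 85 bases and an E-box 189 bases before the start. Those of *Myl1* and *Mylpf* each hold the E-box CAGCTG, at 224 and 51 bases. RefSeq windows were found for 9 of the 10 genes (11 windows). Both *Myl2* windows (chr5:122092474-122092723 and chr5:122092939-122093188) lie outside the gene as positioned below, which begins at 122100951. The bases just before that position were not searched, so the counts say nothing of motifs there. An E-box was present in 8 of the 11 windows, against 66.2% of 32851 mouse windows of the same length. A CArG box was present in 3 of the 11 (*Myl3*, *Myl6* and *Myl9*), against 1.47% of all windows, and a MEF2 motif in 1 (*Mylk4*), against 2.92%. The matches are letters in a window, and binding was not measured.

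None of the 10 genes passed the test between genotypes, and the CPM values of Baf155WT and Baf155ΔMF mice overlapped for every one of them. Likewise 0 of 10 had an unadjusted p under 0.05, while 7.95% of the 12116 genes tested reached that limit in either direction. At an adjusted p under 0.05, 3 of the 12116 genes (0.0248%) were called. The groups did not overlap in 10.8% of all genes tested. The log2 fold change was below 0 in 7 of the 10 genes, against 50.2% of all genes, and its median was -0.05 over the 10 genes and -0.00095 over all genes. For a single gene, the smallest p that an exact permutation test over 3 and 3 mice allows is 0.10. The lack of a call leaves room for differences within the intervals given for each gene. In whole muscle, fewer fibers of a type cannot be told apart from less RNA per fiber.

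**Figure D1:**
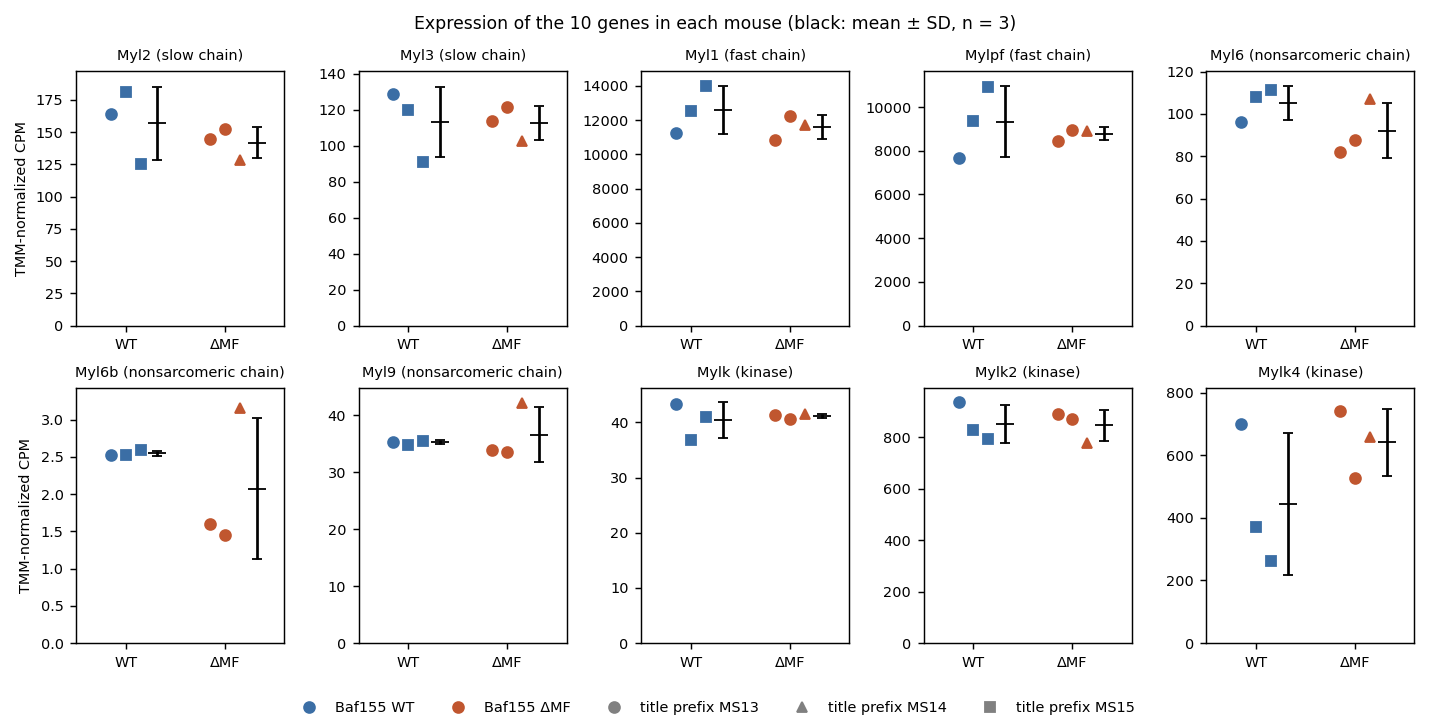
TMM-normalized CPM of the 10 genes in each mouse, with blue for Baf155WT, orange for Baf155ΔMF and the marker shape for the prefix of the sample title. Black bars are the mean ± SD of 3 mice, and the genotypes overlap in every panel, with *Mylk4* ranging from 263.2 to 740.2 CPM.

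Mice are identified by their titles, which begin with MS13, MS14 or MS15, prefixes that the labels do not explain. The Baf155WT mice were MS13-3, MS15-2 and MS15-3, and the Baf155ΔMF mice were MS13-1, MS13-2 and MS14-2. Only MS13 holds both genotypes, so elsewhere a difference by prefix and a difference by genotype cannot be told apart. Total counts ranged from 8426022 to 12469335 per mouse, and 3 counts corresponded to 0.230 to 0.351 CPM. The MS15 mice stood apart on the first principal component (43.3% of the variance), at 24.98 and 22.5, where the other Baf155WT mouse lay at -13.4 and the Baf155ΔMF mice between -17.1 and -1.56. Values below are given in the order of the titles just listed.

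*Myl2*, the slow regulatory chain, had 163.8, 181.1 and 125.3 CPM in Baf155WT mice and 144.7, 152.4 and 128.5 CPM in Baf155ΔMF mice. The highest and the lowest values were both from Baf155WT mice of the MS15 prefix. The log2 fold change was -0.14 (SE 0.13, edgeR adjusted p = 0.752), and the 95% interval of the fold ran from 0.740 to 1.11. Without MS15-3 the log2 fold change was -0.28 (edgeR unadjusted p = 0.0273, adjusted p = 0.992). The gene lies on chromosome 5 from 122100951 to 122113472 (GRCm38, plus strand), and 60 of its exonic bases overlap *Ccdc63* on the other strand.

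*Myl3*, the slow essential chain, had 128.6, 120.1 and 91.2 CPM in Baf155WT mice and 113.7, 121.6 and 102.6 CPM in Baf155ΔMF mice. The Baf155ΔMF values lay inside the range of the Baf155WT values. The log2 fold change was -0.0084 (SE 0.13, edgeR adjusted p = 0.987), with a 95% interval of the fold from 0.818 to 1.21. The difference was above 0 in 5 of 17 alternatives, the largest being 0.092. *Myl3* lies on chromosome 9 from 110741861 to 110769798, with 95 exonic bases shared with *Pth1r* on the other strand.

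*Myl1*, the fast essential chain, was among the most abundant transcripts, with 11246, 12545 and 14027 CPM in Baf155WT mice and 10822, 12234 and 11719 CPM in Baf155ΔMF mice. MS15-3 was highest, and the Baf155ΔMF mice spanned a narrower range. Its log2 fold change was -0.12 (SE 0.13, edgeR adjusted p = 0.792), and the fold lay between 0.755 and 1.12 with 95% confidence. In the MS13 mice alone, the log2 difference was 0.036. The gene lies on chromosome 1 from 66924295 to 66945404 on the minus strand.

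*Mylpf*, the fast regulatory chain and the usual substrate of the skeletal muscle kinase, had 7669, 9366 and 10923 CPM in Baf155WT mice and 8434, 8967 and 8919 CPM in Baf155ΔMF mice. All 3 Baf155ΔMF values fell within the Baf155WT range, with an SD of log2 CPM of 0.049 against 0.26 in Baf155WT mice. The log2 fold change was -0.087 (SE 0.14, edgeR adjusted p = 0.869), with a 95% interval of the fold from 0.758 to 1.17. In the MS13 mice alone, it was 0.18. The gene lies on chromosome 7 from 127208890 to 127214298 on the plus strand.

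**Figure D2:**
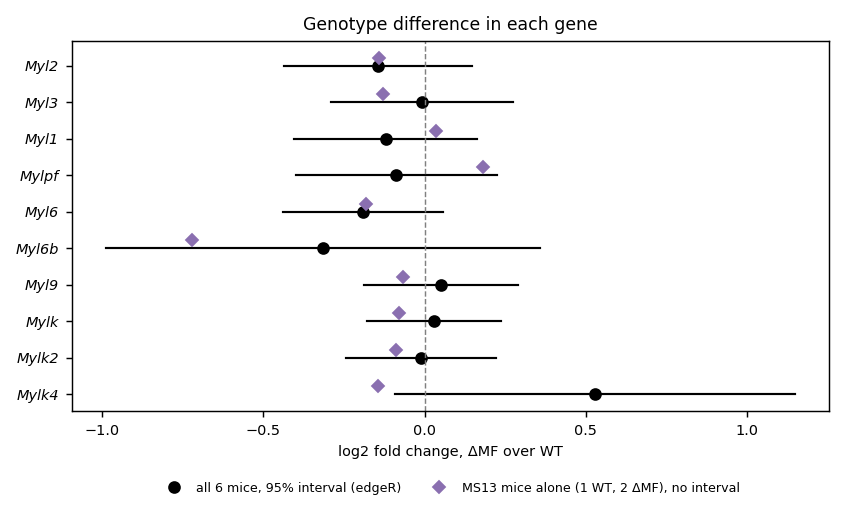
Log2 fold change of each gene, Baf155ΔMF over Baf155WT, from all 6 mice with its 95% interval (black, edgeR) and from the MS13 mice alone (purple diamonds, 1 mouse against 2, no interval). Every interval crosses 0, and the point of *Mylk4* moves from 0.53 to -0.14.

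The balance between slow and fast chains was read from ratios within a library, which do not depend on scaling. The log2 ratio of *Myl2* to *Mylpf* counts was -5.55, -5.69 and -6.45 in Baf155WT mice and -5.87, -5.88 and -6.12 in Baf155ΔMF mice. That of *Myl3* to *Myl1* was -6.45, -6.71 and -7.26 in Baf155WT mice and -6.57, -6.65 and -6.84 in Baf155ΔMF mice. In both ratios MS13-3 was highest and MS15-3 lowest, and the Baf155ΔMF mice lay between them. The genotype difference in mean log2 ratio was -0.058 for the regulatory pair and 0.12 for the essential pair, against SDs of 0.48 and 0.42 among Baf155WT mice. Without both MS15 mice these differences were -0.40 and -0.24, and without MS15-3 alone they were -0.33 and -0.11. In the MS13 mice they were -0.32 and -0.16. Without MS13-3 they were 0.12 and 0.30.

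Per length, the slow chains were a small share of the light chain transcripts of either kind. *Myl2* made up 0.938 ± 0.280% of *Myl2* and *Mylpf* together in Baf155WT mice and 0.874 ± 0.0826% in Baf155ΔMF mice (SD, n = 3, counts divided by the length of all exons). With the length of the principal transcript this share was 1.47 ± 0.438% and 1.38 ± 0.129%. *Myl3* made up 0.922 ± 0.248% of *Myl3* and *Myl1* in Baf155WT mice and 0.978 ± 0.0892% in Baf155ΔMF mice. *Myh7*, the slow heavy chain, made up 0.2996 ± 0.0704% and 0.339 ± 0.0391% of the heavy chain transcripts compared. The genotypes overlapped in each of these shares. The lowest share came from MS15-3 in all 3 cases.

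The log2 ratio of *Myl1* to *Mylpf*, the fast pair, was the steadiest of the ratios computed between chains, from 0.36 to 0.55 over the 6 mice. The log2 ratio of *Myl2* to *Myl3* was 0.35, 0.59 and 0.46 in Baf155WT mice and 0.35, 0.33 and 0.33 in Baf155ΔMF mice. Its groups did not overlap, but the gap between the nearest mice, 0.349 and 0.347, was far smaller than the Baf155WT SD of 0.12. This ratio was 1 of 7 and was not tested.

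**Figure D3:**
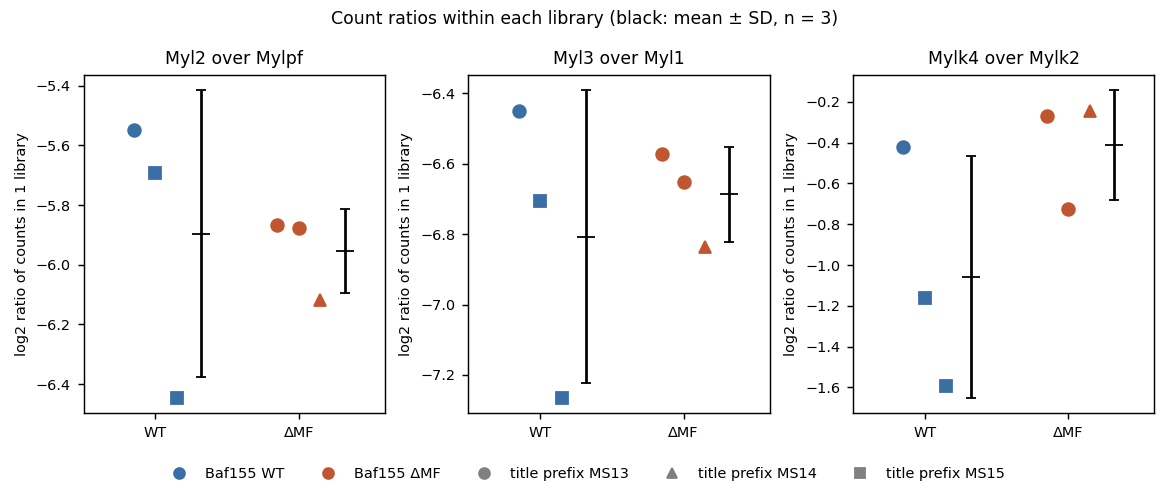
Log2 ratios of counts within each library for slow over fast regulatory chain, slow over fast essential chain and *Mylk4* over *Mylk2*, with the mean ± SD of 3 mice in black. In each panel the Baf155WT mice spread more than the Baf155ΔMF mice, and the genotypes overlap.

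*Myl6*, the essential chain of smooth and nonmuscle myosin, had 96.0, 108.0 and 111.1 CPM in Baf155WT mice and 81.9, 87.5 and 107.0 CPM in Baf155ΔMF mice. The MS13 Baf155ΔMF mice were the lowest, and MS14-2 lay within the Baf155WT range. The genotypes differed by a log2 fold change of -0.19 (SE 0.11, edgeR unadjusted p = 0.120, adjusted p = 0.655), with a 95% interval of the fold from 0.738 to 1.04. Without MS14-2 it was -0.31, with an adjusted p of 0.467. *Myl6* lies on chromosome 10 from 128490860 to 128494145 on the minus strand.

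*Myl6b*, a related essential chain, was the least abundant of the 10 genes, with 2.53, 2.52 and 2.59 CPM in Baf155WT mice and 1.602, 1.45 and 3.16 CPM in Baf155ΔMF mice. Its counts were between 14 and 33 per mouse, so that counting error alone is large. The Baf155ΔMF mice held both the lowest values and the highest. Its log2 fold change was -0.31 (SE 0.31, edgeR adjusted p = 0.771), and the fold could lie anywhere from 0.505 to 1.28 with 95% confidence. Only 11 bases separate *Myl6b* (chromosome 10, 128494157 to 128498685) from *Myl6* on the same strand.

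*Myl9*, the regulatory chain of smooth muscle, had 35.4, 34.8 and 35.5 CPM in Baf155WT mice and 34.0, 33.5 and 42.1 CPM in Baf155ΔMF mice. MS14-2 was the highest and the other Baf155ΔMF mice were the lowest. The genotypes differed by a log2 fold change of 0.051 (SE 0.11, edgeR adjusted p = 0.902), and it was -0.0088 when libraries were scaled by size alone and -0.068 between the MS13 mice. The smooth muscle markers measured beside it (7 of 7 tested, 0 at an unadjusted p under 0.05) summed to 293.4 to 346.1 CPM in Baf155WT mice and 327.5 to 383.9 CPM in Baf155ΔMF mice. *Synpo2* was the largest of them in every mouse, at 171.7 to 208.3 CPM and 206.8 to 231.1 CPM. The sums therefore mostly follow *Synpo2* and are not a reading of all 7. The highest sum was also from MS14-2, and the part of this in the *Myl9* value was not tested. *Myl9* lies on chromosome 2 from 156775420 to 156781658.

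*Mylk*, the smooth muscle and nonmuscle kinase, had 43.3, 36.9 and 41.0 CPM in Baf155WT mice and 41.3, 40.7 and 41.5 CPM in Baf155ΔMF mice. It was the steadiest of the 10 genes, with a range of 0.23 in log2 CPM that was wider than in 11.4% of genes tested. The log2 fold change was 0.028 (SE 0.094, edgeR adjusted p = 0.938), with a 95% interval of the fold from 0.883 to 1.18, and its sign was negative with library size alone. The locus, on chromosome 16 from 34745210 to 35002420, also encodes telokin, and antisense genes share 548 and 224 of its exonic bases. Since the strand setting of the counting is not given in the sources used here, reads of the antisense genes cannot be separated from those of *Mylk*.

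*Mylk2*, the skeletal muscle kinase, had 936.3, 828.8 and 793.2 CPM in Baf155WT mice and 892.4, 869.4 and 776.5 CPM in Baf155ΔMF mice. The ranges of the genotypes were nearly the same. Between genotypes the log2 fold change was -0.011 (SE 0.11, edgeR adjusted p = 0.979), and the fold lay between 0.844 and 1.17 with 95% confidence. *Mylk2* lies on chromosome 2 from 152911352 to 152923068.

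*Mylk4* had 700.0, 370.2 and 263.2 CPM in Baf155WT mice and 740.2, 526.1 and 656.4 CPM in Baf155ΔMF mice. Both MS15 mice were below all others, and MS13-3, the remaining Baf155WT mouse, was second only to MS13-1. The log2 fold change was 0.53 (SE 0.28, edgeR unadjusted p = 0.0869, adjusted p = 0.631), with a 95% interval of the fold from 0.939 to 2.22 and a two-sided exact permutation p of 0.3. Leaving out MS13-3 gave 1.02 (edgeR adjusted p = 0.00142), in a fit that called 955 genes. Every Baf155WT mouse left in that fit was MS15 and no Baf155ΔMF mouse was, so genotype and prefix cannot be told apart in it. Between the MS13 mice alone the log2 difference was -0.14, and without both MS15 mice it was -0.13 (adjusted p = 0.999).

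The range of *Mylk4* over the 6 mice was 1.49 in log2 CPM, larger than in 97.0% of genes tested and 2.81-fold between the highest and the lowest mouse. The next most variable gene, *Myl6b*, had a range of 1.02, larger than in 90.3% of genes. The other 8 genes had ranges from 0.23 to 0.53, against a median of 0.44 over all genes tested. The log2 ratio of *Mylk4* to *Mylk2* was -0.42, -1.16 and -1.59 in Baf155WT mice and -0.27, -0.72 and -0.24 in Baf155ΔMF mice, so that most of the spread was in *Mylk4* and not in *Mylk2*. Per length, *Mylk2* made up 83.9 ± 5.64% of both kinases in Baf155WT mice and 77.5 ± 3.16% in Baf155ΔMF mice. *Mylk4* was also the only one of the 10 genes with a deposited estimate that was not exactly a whole number (no tolerance), in 6 of 6 mice. Of all genes in the table, 14.1% had such an estimate in at least 1 mouse. It lies on chromosome 13 from 32700834 to 32783954 on the minus strand.

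**Figure D4:**
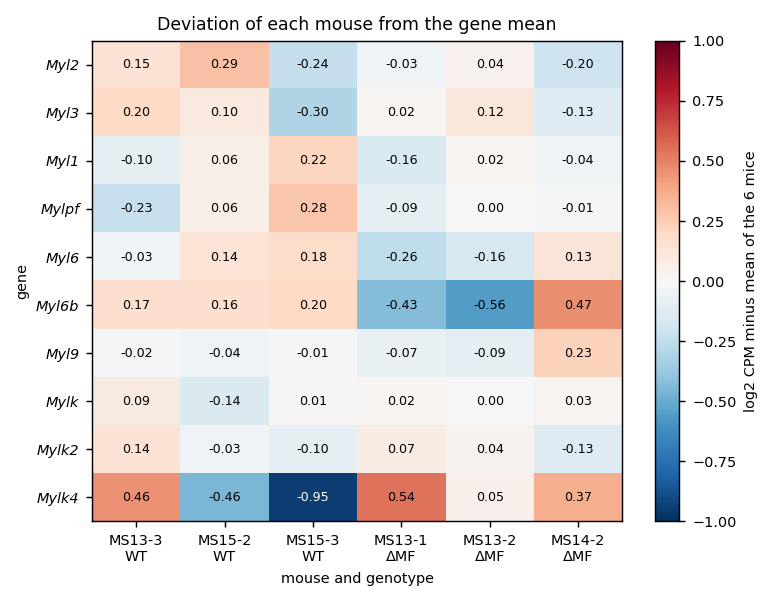
Deviation of log2 CPM in each mouse from the mean of the 6 mice, for each of the 10 genes, with red above and blue below. The *Mylk4* row shows the widest colors, from -0.95 in MS15-3 to 0.54 in MS13-1, while the *Mylk* and *Mylk2* rows stay near 0.

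Summed over each list, macrophage and adipocyte markers were highest, and endothelial markers lowest, in the MS15 mice. Not every marker followed its sum. The adipocyte marker *Lep* had 5.05 CPM in MS13-3 and 3.06 and 7.41 CPM in the MS15 mice. The endothelial marker *Tek* had 41.4, 41.2 and 40.1 CPM in Baf155WT mice and 41.1 to 43.3 CPM in Baf155ΔMF mice. The 5 macrophage markers summed to 70.9 CPM in MS13-3 and to 186.1 and 154.9 CPM in the MS15 mice, against 63.5 to 100.3 CPM in Baf155ΔMF mice, and 5 of 5 were lower in Baf155ΔMF mice at an unadjusted p under 0.05, where 4.6% of all genes were lower at that limit. Adipocyte markers (2 of 5 lower) summed to 34.7 CPM in MS13-3, to 72.6 and 62.8 CPM in the MS15 mice, and to 30.01 to 43.6 CPM in Baf155ΔMF mice. Endothelial markers (2 of 5 higher, against 3.35% of all genes) summed to 284.4, 216.1 and 222.5 CPM in Baf155WT mice and to 281.4 to 301.3 CPM in Baf155ΔMF mice. Red blood cell markers (3 of 5 lower) did not follow the prefix, with 776.9 CPM in MS13-3, 1227 and 621.9 CPM in the MS15 mice and 370.5 to 805.0 CPM in Baf155ΔMF mice. Fibroblast markers (2 of 5 lower) summed to 1446 CPM in MS13-3, to 1821 and 1782 CPM in the MS15 mice and to 1266 to 1854 CPM in Baf155ΔMF mice, with the highest sum in MS14-2. This sum mixes both directions, as the log2 fold change was above 0 in 2 (*Col1a1* and *Col1a2*) and below 0 in 3. Both collagens were highest in MS14-2, at 375.5 and 487.3 CPM. Schwann cell markers (0 of 5 at that limit) lay between 59.0 and 71.8 CPM in all mice. None of these lists had a gene with an adjusted p under 0.05, no marker was at 0 in all mice, and the part of other cells in the *Mylk4* values was not tested.

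Markers of skeletal muscle itself were abundant, with sums that overlapped at 99366 to 137404 CPM and 119817 to 137868 CPM (6 of 6 tested, 0 at an unadjusted p under 0.05). *Ttn* (titin) was the largest in every mouse, at 37561 to 81290 CPM in Baf155WT mice and 62959 to 85258 CPM in Baf155ΔMF mice. The sums therefore mostly follow this gene and are not a reading of all 6. The log2 fold change was above 0 in 3 of the markers and below 0 in 3. Among them *Mb* (myoglobin) was higher without overlap, at 2265 to 2798 CPM and 2865 to 2985 CPM. *Ckm* (muscle creatine kinase) was lower without overlap, at 20712 to 24465 CPM and 19359 to 20590 CPM. Of all genes, 5.2% were higher and 5.57% lower without overlap. Cardiac markers were near the floor, with 2 of 5 passing the filter and sums of 1.61 to 4.18 CPM and 2.69 to 3.10 CPM. Markers of slow fibers summed to 514.4 to 702.9 CPM and 634.7 to 673.5 CPM (1 of 7 higher, 0 lower), and those of fast fibers to 77982 to 93197 CPM and 75958 to 79677 CPM (0 of 8). The log2 fold change was below 0 in 7 of the 8 fast fiber markers (median -0.19) and in 4 of the 7 slow fiber markers (median -0.0096). Over all genes 50.2% were below 0, with a median of -0.00095.

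Levels were compared between genes only per length, in TPM computed from the counts and the length of all annotated exons. *Mylpf* had a mean level of 19627 and *Myl1* of 13430 over the 6 mice, ranks 5 and 9 of 20135 genes. *Mylk2* followed at 658.2 (rank 96). *Myl2* (175.8), *Mylk4* (158.9) and *Myl3* (126.3) came next. *Myl2* was above *Myl3* without overlap, at 150.3 to 235.4 against 111.2 to 148.9, while *Mylk4*, at 85.3 to 205.4, overlapped with both. With the length of the principal transcript the lowest *Myl2* value, 255.5, was above the highest of *Mylk4*, 224.9. *Myl6* (71.4) and *Myl9* (70.9) did not differ beyond their spread either. *Mylk* (8.29) and *Myl6b* (2.90) were lowest. With the length of the principal transcript, *Myl1* was above *Mylpf* (26650 against 20896) and *Myl6* had a level of 262.8, because its annotation includes long transcripts that retain introns (3187 bases of exons against 665 in the principal transcript).

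The genes whose profile over the 6 mice was closest to each of the 10 were found by the root mean square difference of centred log2 CPM, as a description over 6 mice that share depth and prefix. For *Mylk4* these were *Nav2* (0.13), *Chrnd* (0.13) and *Coq10b* (0.15). *Chrnd*, a subunit of the muscle acetylcholine receptor, had 1.65, 0.842 and 0.446 CPM in Baf155WT mice and 1.39, 1.25 and 1.40 CPM in Baf155ΔMF mice, with the MS15 mice again lowest. These levels are low, and in MS15-3 3 counts corresponded to 0.268 CPM, so counting error in the *Chrnd* profile is large. *Coq10b*, a coenzyme Q binding protein, had 39.1, 18.4 and 14.99 CPM in Baf155WT mice and 34.0, 33.5 and 38.1 CPM in Baf155ΔMF mice. *Ttn*, the giant sarcomere protein titin, which was chosen after its values were seen, had 81290, 47541 and 37561 CPM in Baf155WT mice and 85258, 75257 and 62959 CPM in Baf155ΔMF mice. It shows the same order among the Baf155WT mice.

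The closest profiles to the other genes were nearer in log2 units. These differences were not scaled to the range of a gene, which was widest for *Mylk4* (1.49), so they do not rank how well profiles match. They were *Ece1*, *Fut10* and *Haus3* for *Myl2* (0.059 to 0.067), *Sik3*, *Uggt1* and *Zkscan8* for *Myl3* (0.049 to 0.055), and *Mre11a*, *Cox7b* and *Cct5* for *Myl1* (0.019 to 0.026). For *Mylpf* they were *Rxrg*, *Pfdn1* and *Gpatch11* (0.018 to 0.025), and for *Myl6* *Uqcr10*, *Dhrs7b* and *Tubb5* (0.028 to 0.033). For *Myl6b* they included *Tagap1* (0.099) and *Thy1* (0.10), and for *Myl9* *Kdelr2*, *Erh* and *Paxip1* (0.020 to 0.034). For *Mylk* they were *Mrpl47*, *Kat7* and *Fbxo3* (0.013 to 0.020), and for *Mylk2* *Zfp276*, *Tcea2* and *Rab11a* (0.019 to 0.021). None of the 10 genes was among the 3 nearest profiles of another.

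The rest of the light chain pathway was examined through a list of 25 genes, of which 24 were in the table and 21 were tested. At an unadjusted p under 0.05, 2 of the 21 were higher and 1 was lower in Baf155ΔMF mice, beside 3.35% and 4.6% of all genes, and 0 had an adjusted p under 0.05. The median log2 fold change was 0.071, against -0.00095 over all genes. Without MS13-3, in the fit that called 955 genes, *Myl4* (-0.73, edgeR adjusted p = 0.0441), *Ppp1r12b* (0.48, 0.00805) and *Mylip* (0.50, 0.0255) passed the adjusted limit. All Baf155WT mice in that fit were MS15, so these calls cannot be assigned to genotype rather than prefix.

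*Myl4*, the atrial and embryonic essential chain, had 4.57, 5.59 and 5.53 CPM in Baf155WT mice and 3.84, 3.32 and 2.81 CPM in Baf155ΔMF mice, lower without overlap, as in 5.57% of all genes. Its log2 fold change was -0.65 (SE 0.20, edgeR unadjusted p = 0.00678, adjusted p = 0.601), and it was -0.35 between the MS13 mice. It was the 1 gene of 4 further light chains tested to reach that limit. *Myl7*, the atrial regulatory chain, did not pass the filter.

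*Mylip*, a ubiquitin ligase that binds the myosin regulatory chain, had 25.9, 28.2 and 21.2 CPM in Baf155WT mice and 35.8, 36.9 and 32.6 CPM in Baf155ΔMF mice, higher without overlap, as in 5.2% of all genes. Its log2 fold change was 0.48 (SE 0.12, edgeR unadjusted p = 0.00204, adjusted p = 0.591). Between the MS13 mice it was 0.49, about the value in all 6. *Rhoa*, the small GTPase listed with it, gave -0.015.

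*Ppp1r12b*, the targeting subunit of the myosin phosphatase in striated muscle, had 102.2, 82.4 and 75.6 CPM in Baf155WT mice and 120.3, 104.6 and 104.9 CPM in Baf155ΔMF mice. It was higher without overlap, as in 5.2% of all genes. The log2 fold change was 0.34 (SE 0.12, edgeR unadjusted p = 0.0149, adjusted p = 0.601) and 0.14 between the MS13 mice. Of 7 phosphatase genes tested, it was the 1 at that limit. *Ppp1r14a*, an inhibitor of the phosphatase, had the largest difference of them, -0.60, at 0.585 to 1.70 CPM (edgeR unadjusted p = 0.132), and its sign turned between the MS13 mice.

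The other kinases did not reach that limit. The 5 further kinases tested had log2 fold changes from 0.071 to 0.25, of which the largest was *Dapk3*, a kinase of the regulatory chain, with 9.33, 9.03 and 8.75 CPM in Baf155WT mice and 10.3, 10.9 and 11.1 CPM in Baf155ΔMF mice (edgeR unadjusted p = 0.0655). Its values were higher without overlap, as in 5.2% of all genes. *Mylk3*, the cardiac kinase, did not pass the filter.

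The heavy chains, which the light chains bind, were set beside them. *Myh1*, the heavy chain of type IIx fibers, had 5731, 4034 and 4810 CPM in Baf155WT mice and 7683, 6341 and 6466 CPM in Baf155ΔMF mice, a log2 fold change of 0.49 (edgeR unadjusted p = 0.00672, adjusted p = 0.601) and 0.29 between the MS13 mice. *Myh2*, of type IIa fibers, had 2228, 1573 and 1483 CPM and 2404, 2276 and 2175 CPM, a log2 fold change of 0.38 (edgeR unadjusted p = 0.0294) and 0.070 between the MS13 mice. *Myh8*, the perinatal chain, differed by 0.55 (edgeR unadjusted p = 0.0461) at 1.65 to 2.92 CPM. Without MS13-3 the log2 fold changes of *Myh1* and *Myh2* were 0.63 and 0.58, with edgeR adjusted p = 0.00789 and 0.00346. In that fit, which called 955 genes, every Baf155WT mouse was MS15 and no Baf155ΔMF mouse was. These p values therefore cannot separate genotype from prefix.

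*Myh4*, of type IIb fibers, differed by 0.0089, *Myh7* by 0.23 and the embryonic chain *Myh3* by -0.095, all with an edgeR unadjusted p above 0.05. In all, 3 of 6 sarcomeric heavy chains were higher and 0 lower at an unadjusted p under 0.05, beside 3.35% and 4.6% of all genes, and 0 of 10 light chains and kinases were in either direction. The difference between the families was not tested. *Myh1*, *Myh2*, *Myh4*, *Myh7* and *Myh8* had deposited estimates that were not whole numbers in 6 of 6 mice, and *Myh3* in 3. Of all genes, 14.1% had such an estimate in at least 1 mouse. *Myh8* rested on 17 to 27 counts per mouse. Whether these heavy chains differ independently of each other was not tested. The smooth muscle and nonmuscle chains *Myh9* (0.076), *Myh10* (-0.12), *Myh11* (0.11) and *Myh14* (0.22) did not reach that limit, and 3 of these 4 changed sign between the MS13 mice.

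**Figure D5:**
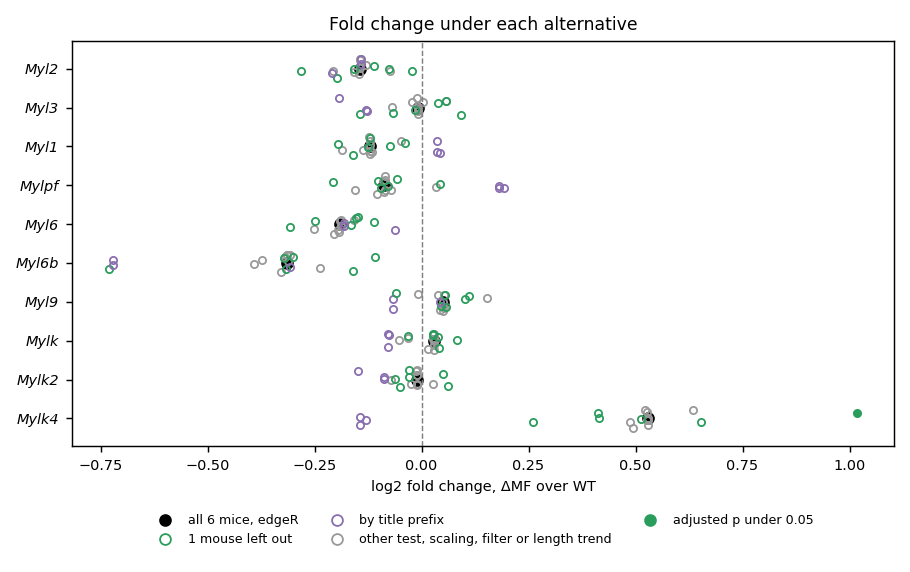
Log2 fold change of each gene in the fit of all 6 mice (black) and in the alternatives, with green for fits without 1 mouse, purple for those that handle the title prefix and grey for other tests, scalings, filters or length trends. The filled green point at 1.02 is *Mylk4* without MS13-3, the 1 value with an adjusted p under 0.05. In that fit every Baf155WT mouse has the prefix MS15, which no Baf155ΔMF mouse has.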

How the data were processed

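Total RNA libraries (TruSeq Stranded Total RNA) of 6 mice were sequenced by the authors, 1 per mouse. The authors deposited expected counts per gene symbol without normalization. The submitters' processing notes name CASAVA 1.8.2, cutadapt 1.10, Bowtie2 2.2.7, TopHat2 2.1.1, RSEM 1.2.30 and limma, with the builds mm10 and GRCm38, and the annotation is not given in the sources used here. The estimates were rounded to whole counts and analysed with edgeR 4.0.16 in R 4.3.3 (TMM, filterByExpr with a minimum count of 10 and a minimum total of 15, quasi-likelihood F test, Benjamini-Hochberg adjustment over 12116 genes). The common biological coefficient of variation was 0.111. Total counts were 8426022 to 12469335 per mouse, and the floor of 3 counts covers counting error only. The procedure was also run on simulated independent counts without differences by title prefix, so that run does not bear on the effect of the prefix here.

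The members, the gene lists and the tests were chosen with earlier results of these data known. All 10 members are named, with each gene of the pathway lists at an unadjusted p under 0.05, the largest difference of each list, the heavy chains tested, *Smarcc1*, and the 3 nearest profiles of each member. Positions come from GENCODE M21 (GRCm38) and promoter windows from RefSeq (GRCm38.p6). Each result was recomputed with DESeq2 1.42.0 and with voom in limma 3.58.1, and with other scalings and filters, a robust fit, the title prefix as a covariate, removal of a length trend, other lengths and leaving out each mouse in turn. The principal transcript length and the fit without both MS15 mice were added after seeing the data. Some genes that the naming rule covers are not reported here. RT-qPCR, blot and staining data were not analysed here.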

Additional observations from a re-analysis of the deposited data

How the results depend on the processing

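Of the 10 genes, 0 had an adjusted p under 0.05 in the fit of all 6 mice, and 0 did under 16 of the 17 alternatives with a test. The count was 0 to 1 when each mouse was left out, and the 1 call was *Mylk4* without MS13-3, where the log2 fold change was 1.02 (0.26 to 1.02 over the 6 fits without 1 mouse). The number with an unadjusted p under 0.05 was 0, and it was 1 with limma-voom, 1 without a filter on low counts and 0 to 2 without 1 mouse. Over all genes, 3 calls became 23 with DESeq2, 5 with limma-voom, 17 without a filter and 0 to 955 without 1 mouse. The 955 calls came without MS13-3, where prefix and genotype cannot be told apart. With the title prefix as a covariate, only the MS13 mice bear on the genotype difference, so that fit is read for its log2 fold changes alone. In the fits with 0 calls (edgeR, without MS15-2 or MS13-2), 451 and 568 genes had an unadjusted p under 0.05, and the other tools were not run on those mice. The causes were not tested. Scaling by library size alone moved the median of all genes to -0.064 on the log2 scale. Without 1 mouse, *Smarcc1* ranged from -1.59 to -1.36, and its adjusted p was 0.0616 without MS15-2, 0.0533 without MS13-1 and 0.0678 without MS13-2. The genotype difference in log2 ratio was -0.40 for *Myl2* to *Mylpf* and -0.24 for *Myl3* to *Myl1* without both MS15 mice, against -0.058 and 0.12 in all 6, and it ranged from -0.33 to 0.12 and from -0.11 to 0.30 without 1 mouse.

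The sign of differences changed most often with the title prefix. Besides small ones, the larger differences of *Mylk4* (0.53 in all 6 mice) and *Ppp1r14a* (-0.60) turned. With the prefix as a covariate the log2 fold changes were 0.036 (*Myl1*), 0.18 (*Mylpf*), -0.068 (*Myl9*), -0.080 (*Mylk*), -0.14 (*Mylk4*), 0.041 (*Ppp1r14a*), -0.045 (*Myh4*), -0.046 (*Myh7*), 0.34 (*Myh3*), -0.17 (*Myh9*), -0.088 (*Myh11*) and -0.17 (*Myh14*). Only MS13 holds both genotypes, so that fit takes its genotype difference from the MS13 mice, 1 Baf155WT against 2 Baf155ΔMF. The values between the MS13 mice alone, with no test, are therefore the same estimate and not a second alternative. They were 0.036, 0.18, -0.068, -0.079, -0.14, 0.042, -0.045, -0.046, 0.34, -0.17, -0.087 and -0.17 in the same order. Without both MS15 mice they were 0.042 (*Myl1*), 0.19 (*Mylpf*), -0.075 (*Mylk*), -0.13 (*Mylk4*), -0.12 (*Myh4*), -0.12 (*Myh7*), 0.39 (*Myh3*), -0.077 (*Myh9*), -0.037 (*Myh11*) and -0.21 (*Myh14*). With the length trend removed they were 0.056 (*Myl3*), 0.033 (*Mylpf*), -0.053 (*Mylk*), 0.026 (*Mylk2*), -0.022 (*Myh4*) and -0.014 (*Myh9*). With library size alone they were -0.0088 (*Myl9*), -0.032 (*Mylk*) and -0.053 (*Myh4*), with upper-quartile scaling -0.0047 (*Myh4*), and with limma-voom 0.0027 (*Myl3*). Without 1 mouse the signs also turned within -0.14 to 0.092 (*Myl3*), -0.21 to 0.042 (*Mylpf*), -0.059 to 0.11 (*Myl9*), -0.031 to 0.082 (*Mylk*), -0.061 to 0.062 (*Mylk2*), -0.050 to 0.081 (*Myh4*), -0.27 to 0.015 (*Myh3*) and -0.013 to 0.16 (*Myh9*). No paired analysis was possible because the replicate numbers follow the order of the samples and the titles of the genotypes share fewer than 2 numbers.

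With 3 mice per genotype, and a prefix that overlaps with genotype in only 3 of the 6 mice, small differences in these genes cannot be resolved. Larger ones cannot be resolved either for *Mylk4* and *Myl6b*. Their 95% intervals of the fold ran from 0.939 to 2.22 and from 0.505 to 1.28. *Myl6b* is also limited by its depth.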
